A study of Mus musculus with 32 samples.

Results

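The genes described here are 31 astrocyte transcripts read in microglia that had been sorted from mouse cortex after a stab wound. They were taken by gene symbol from a fixed list and make up 31 of the 55385 genes in the deposited tables. Of the 31, 8 are genes that astrocytes raise when they become reactive (Gfap, Clu, Cpe, Mt1, Mt2, S100b, Sox9 and Htra1), and 23 belong to the transport, coupling, metabolic and matrix functions of resting, or homeostatic, astrocytes. The mice were adult C57BL/6 heterozygous for Cx3cr1CreER, a tamoxifen-activated recombinase placed in the fractalkine receptor gene. At 8 to 10 weeks of age they received tamoxifen at 180 mg per kg on 5 consecutive days, which switched on the yellow fluorescent protein EYFP in microglia. Cells carrying EYFP were sorted from the wound ("injured") or from the mirror position in the other hemisphere ("non-injured") at days 1, 4, 7 and 14, in females and in males. Every mouse in these groups was therefore a tamoxifen-treated recombinase carrier with a wound, and the column names call the non-injured side sham. Cx3cr1 is also active in monocytes and in macrophages at the borders of the brain, so the reporter alone does not set those cells apart. Only polyadenylated RNA was sequenced.

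Astrocytes are the glial cells that take up glutamate and potassium from around synapses, wrap blood vessels with endfeet and couple into networks through gap junctions. After a wound they enlarge, raise the intermediate filament Gfap and other reactive genes, and can form a border around the damage, while many of their transport genes are turned down. Microglia are the resident phagocytes of the brain and are not known to make most of these 31 transcripts. Glul, Mt1, Mt2, Clu, Cpe, Htra1, Slco1c1, Sparcl1 and Plpp3 are the exceptions on the list, since myeloid or vascular cells are known to express them too.

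Each combination of day, sex and side was deposited as 2 columns, which the series description calls biological replicates. Between the 2 columns the counts varied barely beyond sampling noise, with a median chi-square per gene of 0.475 to 0.639 where noise alone gives 0.455. They were summed, which left 16 libraries, or 8 pairs of 1 day and 1 sex with both sides. Which samples came from separate animals is not stated in the labels, and the p-values therefore speak only of the spread among these samples, which may be technical. Libraries held 20864031 to 55378880 counts and 14737 to 40975 detected genes. All 14 microglia markers examined were detected in each library, with a summed level of 13761 to 75722 CPM (counts scaled by TMM library size to a total of 1000000). At the wound 7 of these 14 markers were called lower and 3 higher, with a median log2 change of -0.76, by the test described below. The day 4 male non-injured library stood apart. It had the lowest microglia sum, and there the 31 astrocyte genes summed to 24541 CPM and 12 neuron markers to 3902 CPM, the highest values of any library. The day 7 male non-injured library followed, at 11034 CPM for the astrocyte genes and 1059 CPM for the neuron markers. Counts of calls and the main single-gene results are also given without these 2 pairs.

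All 31 astrocyte genes were found in these sorted cells, and all 31 passed the filter on low counts. Among them, 29 had reads in every library. Bcan had 0 reads in the day 14 female injured library, which allows up to 0.118 CPM, and Aqp4 had 0 in its non-injured partner, which allows up to 0.123 CPM. Each of these limits covers counting error only. Compared per transcript length, in TPM, the most abundant on the non-injured side was Glul, the glutamine synthetase that recycles glutamate, with a mean of 1111 ± 918 TPM (SD, n = 8). Next came Cpe, a carboxypeptidase of the secretory pathway, at 718 ± 1124 TPM, and Aldoc, the brain aldolase of glycolysis, at 614 ± 776 TPM. These SDs are close to the means or above them, so the order of the first 3 does not hold beyond the spread between libraries. Without the day 4 and day 7 male pairs the order was Glul at 1203 TPM, Mt1 at 315, Aldoc at 242 and Cpe at 165. Among the scarcest were Slc4a4, a sodium bicarbonate cotransporter, at 4.75 ± 5.32 TPM, and the growth factor receptor Fgfr3. On the injured side Mt1 led with 639 ± 276 TPM, ahead of Glul at 403 ± 381 TPM, and Gfap stood at 102 ± 51.9 TPM. The next genes, Mt2 (86.3 ± 78.5 TPM), Cpe (80.1 TPM) and Aldoc (76.4 ± 55.4), lay within the spread of Gfap. The non-injured Gfap mean was 53.3 ± 85.7 TPM, and 14.5 ± 23.1 TPM (n = 6) without the day 4 and day 7 male libraries.

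**Figure D1:**
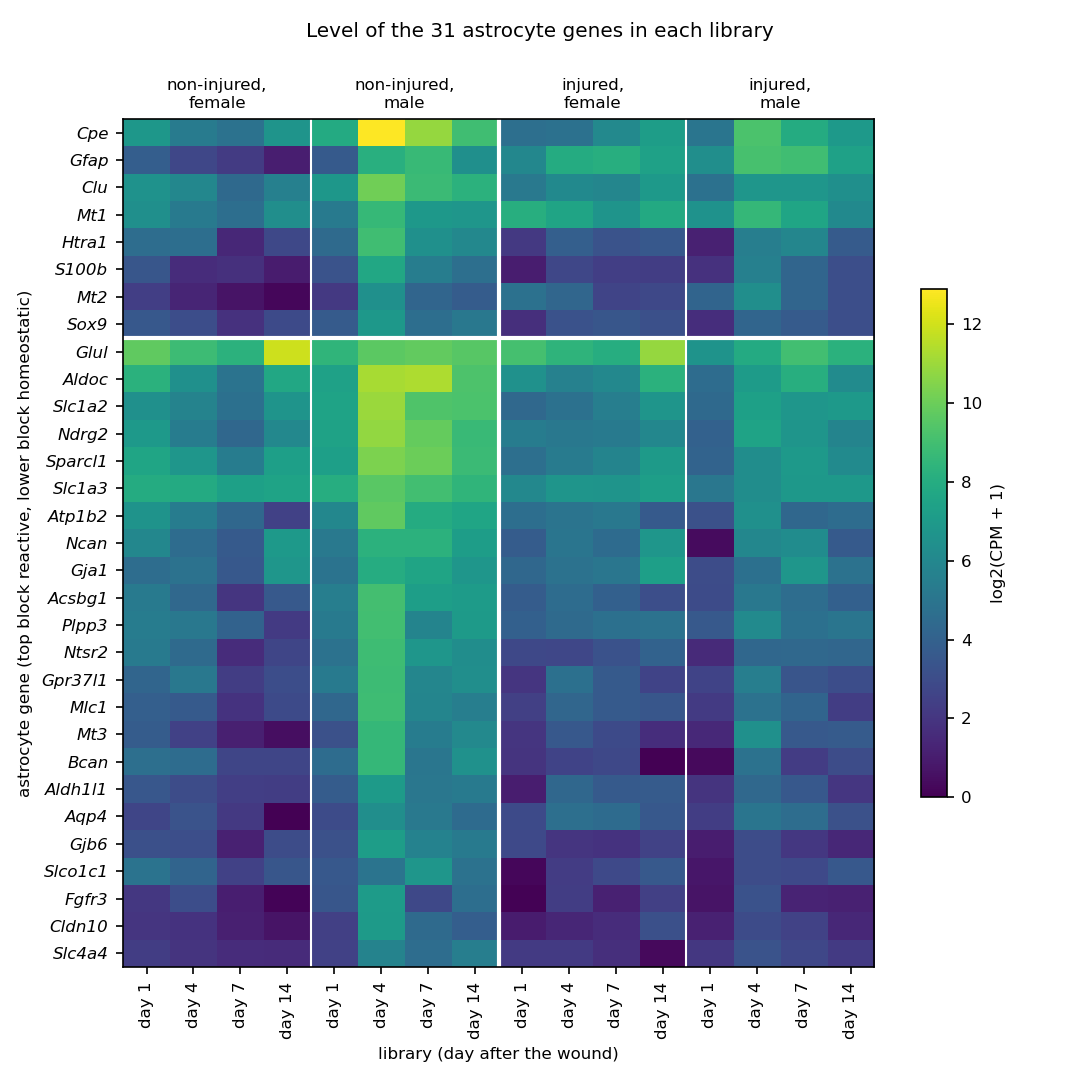
Level of each of the 31 astrocyte genes (rows, reactive genes above the white line and homeostatic genes below it) in each of the 16 libraries (columns, by side, sex and day), as log2(CPM + 1). The brightest column is the day 4 male non-injured library, which held the highest non-injured level for 26 of the 31 genes.

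The first question was how the wound differed from the opposite hemisphere when the 4 days were averaged. No astrocyte gene passed the test in the upward direction and 8 of 31 fell. Genes were tested by edgeR's quasi-likelihood test with Benjamini-Hochberg adjustment over all 28597 genes tested and called at an adjusted p under 0.05. Over all genes, 7.76% were called higher at the wound and 7.96% lower. At an unadjusted p under 0.05, 3 of the 31 were higher and 19 lower, where 13% and 15.7% of all genes were. DESeq2 called 3 higher and 21 lower, against 9.39% and 13.1% of all genes. The median log2 change (injured over non-injured) of the 31 genes was -1.59, beside -0.32 for all genes tested. By group, 0 of 8 reactive and 8 of 23 homeostatic genes were called, with medians of -0.98 and -1.74. In bulk samples such as these, fewer cells of a type and less RNA per cell cannot be told apart.

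Neuron markers were also lower at the wound, but did not follow the homeostatic genes in every pair. Of 12 neuron markers, 11 were called lower at the wound and 0 higher, and their sum was lower in 8 of 8 pairs, at 15.7 to 215 CPM on the injured side and 64.8 to 3902 CPM on the other. In the day 7 and day 14 female pairs the neuron sum was 27.1 against 64.8 CPM and 75.9 against 188 CPM. The homeostatic genes had median log2 ratios of 0.85 and 0.14 in these pairs. As a sum they stood at 787 against 684 CPM in the day 7 female pair. In the day 14 female pair their sum was lower at the wound, as the neuron sum was, at 3007.5 against 4864 CPM. Without Glul it was 1143 against 1006 CPM, so the direction in that pair depends on the measure. Up to 2 of the 12 neuron markers were at 0 in a library. Endothelial markers were called lower for 7 of 10 genes, with sums of 46.9 to 278 CPM against 134 to 1079 CPM. Oligodendrocyte markers did not share this pattern gene by gene, with 2 of 11 called lower, 8 of 11 above 0 and a median of 0.66. Their sum was higher at the wound in 2 of 8 pairs only, both female. It ranged from 225 to 2480 CPM on the injured side and from 390 to 4505 CPM on the other. Without the day 4 and day 7 male pairs 8 neuron markers, 5 endothelial markers and 1 oligodendrocyte marker were called lower and 0 higher. The part that these other cells' transcripts have in the results was not tested.

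Gfap, the intermediate filament whose protein is the usual stain for reactive astrocytes, was the single astrocyte gene that was higher at the wound in all 8 pairs, as were 5.11% of all genes tested. In females it lay at 60.9, 247, 274 and 166 CPM in the injured libraries of days 1, 4, 7 and 14, and at 13.5, 5.61, 3.79 and 1.15 CPM in their non-injured partners. In males the injured libraries held 81.1, 563, 498 and 168 CPM and the non-injured ones 11.5, 281, 412 and 85.7 CPM. All 4 female non-injured libraries and the day 1 male one lay below every injured library, and the other 3 male non-injured libraries lay within the injured range, so the sides overlapped. The pair log2 ratios ran from 0.27 in the day 7 males to 6.28 in the day 14 females.

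The fitted mean change of Gfap was 2.99 on the log2 scale (SE 0.90) and narrowly missed the threshold of edgeR's quasi-likelihood test (adjusted p = 0.0528). Over all 19 alternatives its change stayed between 2.32 and 4.25 with an adjusted p of 5.01e-05 to 0.213, and it passed in DESeq2 (adjusted p = 0.000982). Without the day 4 and day 7 male pairs it was 4.25 with an adjusted p of 0.00268 in edgeR. The gene lies at chr11:102887336-102900912 on the minus strand (GRCm38, GENCODE M21) and is overlapped by the long non-coding RNA Gm26668. The library protocol does not keep the strand, so reads of overlapping genes, which 11 of the 31 have in the annotation, cannot be told apart.

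Mt1 and Mt2 encode metallothioneins, small proteins that bind zinc and copper and that many cell types raise under metal load, glucocorticoids or oxidative stress. They are neighbouring, closely related genes on chromosome 8, and the counting could split reads between such copies. Mt1 lay at 272, 186, 102 and 227 CPM in the injured female libraries of days 1, 4, 7 and 14 and at 83.6, 37.9, 24.3 and 81.2 CPM in the non-injured ones. In males it held 93.4, 378, 187 and 67.7 CPM at the wound against 39.3, 400.2, 117 and 108 CPM. It was higher at the wound in all 4 female pairs and in the day 1 and day 7 male pairs, and lower in the day 4 and day 14 male pairs, and the sides overlapped. Its mean log2 change was 1.09 (SE 0.34) and missed the threshold (adjusted p = 0.0597, edgeR).

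Mt2 was scarcer. At days 1, 4, 7 and 14 it lay at 26.8, 17.9, 5.25 and 5.85 CPM in injured females against 4.28, 1.56, 0.612 and 0.164 CPM in their partners, which all lay below the injured female libraries. Injured males held 16.9, 81.8, 17.5 and 7.71 CPM, against 3.38, 86.3, 17.7 and 12.5 CPM. Among the male pairs the day 1 pair was higher at the wound, at a log2 ratio of 2.03, and the day 4 and day 7 male ratios were -0.08 and -0.02. The mean change was 1.40 (SE 0.55, adjusted p = 0.126, edgeR). Without the day 4 and day 7 male pairs both genes passed, Mt1 at 1.58 (adjusted p = 0.0140) and Mt2 at 2.37 (adjusted p = 0.0392). Mt3, the metallothionein typical of the brain, is counted among the homeostatic genes and had a mean change of -1.05 (SE 0.62, adjusted p = 0.311). It lay next to the other 2 genes at chr8:94152607-94154146.

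In the female pairs of days 1, 4, 7 and 14 the log2 ratio of Mt3 was -1.75, 1.04, 1.77 and 1.22, and it was below 0 in all 4 male pairs. For these neighbouring genes of 1 family, the 250 bases before the RefSeq start of each are shown (GRCm38.p6, plus strand, 5′ to 3′). They lie at chr8:94178839-94179088 for Mt1, chr8:94172368-94172617 for Mt2 and chr8:94152357-94152606 for Mt3. Capitals mark each match, on either strand, to TGCACNC or TGCGCNC, the core of the metal response element bound by the zinc-sensing factor Mtf1.
Mt1: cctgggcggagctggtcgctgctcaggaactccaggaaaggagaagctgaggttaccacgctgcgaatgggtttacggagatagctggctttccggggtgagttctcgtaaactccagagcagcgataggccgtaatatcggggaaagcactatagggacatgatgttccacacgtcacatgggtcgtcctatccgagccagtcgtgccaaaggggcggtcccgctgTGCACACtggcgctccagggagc
Mt2: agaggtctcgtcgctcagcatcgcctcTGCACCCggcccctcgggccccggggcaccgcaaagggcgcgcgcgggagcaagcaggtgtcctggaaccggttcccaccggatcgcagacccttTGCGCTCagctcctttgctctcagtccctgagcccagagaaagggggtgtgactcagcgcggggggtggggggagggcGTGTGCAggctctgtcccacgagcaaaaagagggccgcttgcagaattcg
Mt3: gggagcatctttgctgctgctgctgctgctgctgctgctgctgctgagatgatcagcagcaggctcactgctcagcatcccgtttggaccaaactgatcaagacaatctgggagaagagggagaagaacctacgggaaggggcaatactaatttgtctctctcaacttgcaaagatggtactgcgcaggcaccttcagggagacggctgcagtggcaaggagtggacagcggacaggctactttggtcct
The Mt1 window holds 1 match, the Mt2 window 3 and the Mt3 window 0. Of 32851 such windows in the RefSeq table, 21.4% hold at least 1 match and 415 hold at least 3. Among the 31 astrocyte genes 25 had a window, and Glul and Slc4a4 were the others with a match. A match is a run of letters in this window and says nothing of binding. Whether the matches have a part in the levels was not tested. The window is set by the start RefSeq gives, and a start placed elsewhere would give other letters.

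The other 5 reactive genes did not follow Gfap. Clu, a secreted chaperone also called clusterin, ranged from 26.9 to 125 CPM (median 75.9) at the wound and from 20 to 1084 CPM (median 104) on the other side. S100b, a calcium-binding protein of mature astrocytes, ranged from 1.06 to 48.8 CPM (median 5.01) against 0.986 to 212 CPM (median 9.53). Sox9, a transcription factor of astrocyte nuclei, ranged from 2.17 to 17.4 CPM (median 8.20) against 2.56 to 117 CPM (median 11.3). For each of these 3 genes the sides overlapped, and the level at the wound was higher in the day 4, 7 and 14 female pairs only.

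Cpe is among the 3 genes with the highest mean TPM over all libraries, with Glul and Mt1. In the female libraries of days 1, 4, 7 and 14 it lay at 25.1, 27.5, 65.4 and 142 CPM at the wound and at 113, 40.7, 28.4 and 102 CPM in the partners. In males it lay at 31.6, 597, 244 and 119.7 CPM against 232, 7616, 1854 and 492 CPM. The day 4 male non-injured library alone lifted the non-injured mean from 409 to 1310 CPM. Htra1, a secreted protease, was likewise lower in all 4 male pairs and higher in the day 7 and day 14 female pairs. The mean changes of these 5 genes were negative, between -1.59 (Cpe) and -0.95 (Clu), with adjusted p-values of 0.0805 to 0.316 in edgeR.

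**Figure D2:**
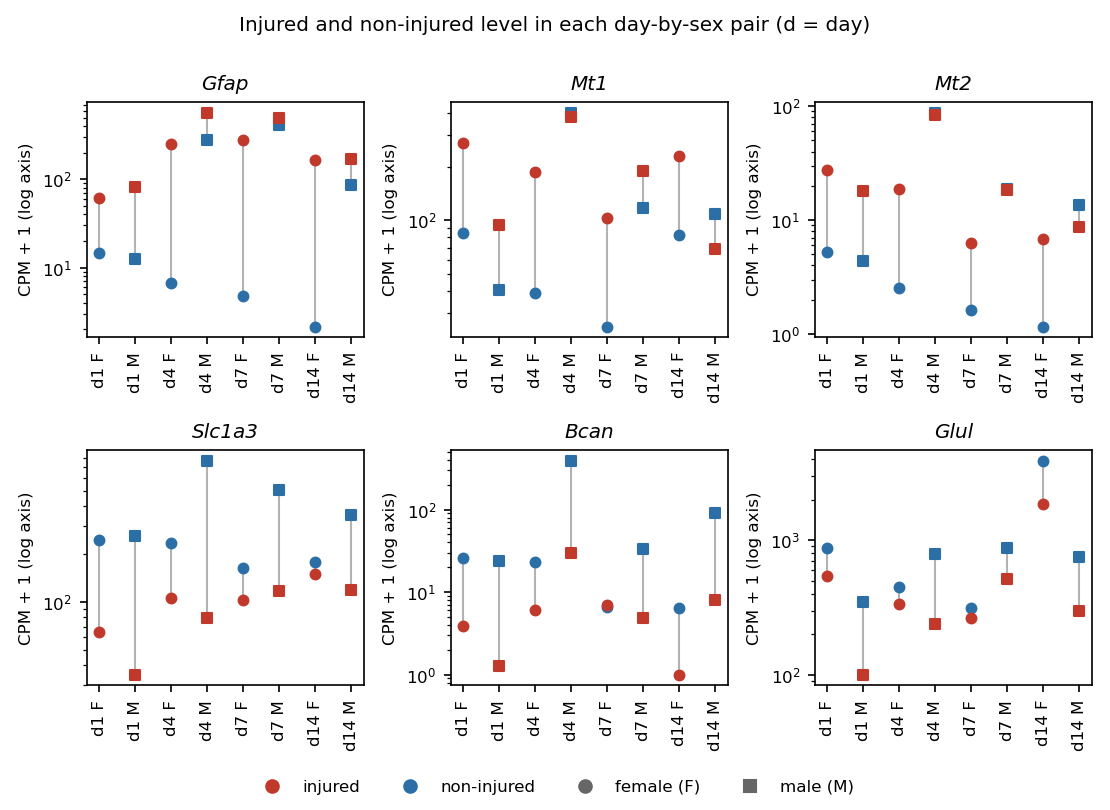
CPM + 1 on a log axis in the injured (red) and non-injured (blue) library of each day-by-sex pair, for Gfap, Mt1, Mt2, Slc1a3, Bcan and Glul, with circles for females and squares for males (a hidden blue symbol lies under a red one of nearly the same level). In all 8 pairs Gfap is higher on the injured side and Slc1a3 and Glul are lower.

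Among the homeostatic genes the glutamate pathway was represented by 3 genes, all of which fell. Slc1a3 encodes GLAST, a glutamate transporter of the astrocyte membrane (chr15:8634124-8710764, minus strand). In females of days 1, 4, 7 and 14 it lay at 63.3, 105, 102 and 148 CPM at the wound and at 243, 234, 161 and 177 CPM in the partners. In males it lay at 33.9, 78.8, 116 and 118 CPM against 257, 766, 505 and 349.9 CPM. Every injured library lay below every non-injured one, which held for no other of the 31 genes and, in this direction, for 0.143% of all genes tested. The mean log2 change was -1.74 (SE 0.30, adjusted p = 0.00519, edgeR), and without the day 4 and day 7 male pairs it was -1.28 (adjusted p = 0.0172). Leaving out the day 1 male pair gave an adjusted p of 0.0513, the one alternative in which it missed.

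Glul, which turns the glutamate that astrocytes take up into glutamine, was likewise lower on the injured side of all 8 pairs. These were the only 2 astrocyte genes with that pattern, which 4.07% of all genes showed. In females Glul lay at 540, 334, 264 and 1864 CPM at the wound against 865, 451, 313 and 3858 CPM, and in males at 99.3, 238, 513 and 296 CPM against 348, 790, 876 and 746 CPM. The day 14 female pair was the highest on both sides, and the sides overlapped. The change was -1.01 (SE 0.20, adjusted p = 0.00944, edgeR), and -0.76 without the day 4 and day 7 male pairs, where it no longer passed (adjusted p = 0.0613).

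Slc1a2 encodes GLT-1, the main glutamate transporter of the forebrain. Female libraries held 19.5, 26.8, 44.2 and 106 CPM at the wound and 86.8, 52.7, 26 and 100.4 CPM on the other side. Male libraries held 20.5, 159, 108 and 119.9 CPM against 175, 1959, 653 and 603 CPM. All 4 male pairs and the day 1 and day 4 female pairs were lower at the wound, and the sides overlapped. Its change of -1.76 (SE 0.47) passed in edgeR (adjusted p = 0.0336), and that call was lost without the day 4 and day 7 male pairs (-0.99, adjusted p = 0.147).

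Bcan, or brevican, a proteoglycan of the perineuronal matrix, had the largest fall of the 31 (chr3:87987531-88000230, minus strand). Its levels in females were 2.89, 5.08, 5.93 and 0 CPM at the wound against 25.2, 22.2, 5.54 and 5.46 CPM. In males they were 0.271, 28.6, 3.90 and 7.04 CPM against 22.6, 387, 32.2 and 89.7 CPM. The day 7 female pair was level, at a log2 ratio of 0.08, and the other 7 pairs were lower at the wound, though the sides overlapped. The change was -3.18 (SE 0.47, adjusted p = 0.00198, edgeR). It passed in all 19 alternatives, with an adjusted p of at most 0.0246, and was -2.48 without the day 4 and day 7 male pairs. Ncan, or neurocan, a related proteoglycan, ranged from 0.320 to 110 CPM at the wound and from 11.6 to 312 CPM on the other side, and its change of -1.78 was not called (adjusted p = 0.0813).

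Sparcl1, or hevin, is a secreted matrix protein that astrocytes and vessels share. It lay at 25.1, 39.7, 55.5 and 131 CPM in injured females against 189, 110.4, 41.9 and 152 CPM. Injured males had 16.3, 78.9, 122 and 71.2 CPM against 155, 1288, 1007 and 436 CPM. All pairs but the day 7 female one were lower at the wound, and the change was -2.15 (SE 0.47, adjusted p = 0.0142, edgeR).

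Slco1c1, a thyroid hormone transporter of astrocyte endfeet and brain vessels, lay at 0.166, 3.93, 6.16 and 11.2 CPM in injured females against 29.3, 17.1, 4.72 and 10.1 CPM. Injured males had 0.738, 6.86, 6.12 and 10.7 CPM against 10.8, 30.4, 107 and 28.4 CPM. The day 7 and day 14 female pairs were slightly higher at the wound and the other 6 pairs lower. The change was -2.50 (SE 0.53, adjusted p = 0.0126, edgeR). Endothelial markers summed to 1079 CPM in the day 7 male non-injured library, their highest value and the library in which Slco1c1 was also highest.

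The last 2 called genes were the bicarbonate cotransporter Slc4a4 and the orphan receptor Gpr37l1. Slc4a4 lay at 3.58, 3.51, 2.32 and 0.275 CPM in injured females against 4.12, 2.83, 2.10 and 1.97 CPM, and at 3.22, 8.94, 5.72 and 3.54 CPM in injured males against 4.59, 52.9, 23.3 and 45.4 CPM. Gpr37l1 lay at 2.95, 25.9, 11.8 and 5.10 CPM in injured females against 17.7, 35.4, 4.08 and 7.31 CPM. In males it lay at 5.14, 44.5, 9.69 and 7.15 CPM against 37.6, 451, 58.4 and 80.8 CPM. Both were lower in all 4 male pairs and mixed in females, with overlapping sides. Their changes were -1.61 (SE 0.39, adjusted p = 0.0187) and -1.88 (SE 0.56, adjusted p = 0.0495) in edgeR, and neither passed without the day 4 and day 7 male pairs (adjusted p = 0.416 and 0.233).

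The remaining 15 homeostatic genes were not called. They cover the gap junction connexins Gja1 and Gjb6, the endfoot water channel Aqp4 with the junction protein Mlc1, the folate enzyme Aldh1l1, the glycolytic Aldoc, the lipid enzymes Acsbg1 and Plpp3, and the sodium pump subunit Atp1b2. The receptors Fgfr3 and Ntsr2, the claudin Cldn10, Ndrg2, Mt3 and Ncan complete the list. Their mean log2 changes ran from -2.31 for Fgfr3 (adjusted p = 0.0697) to 0.33 for Aqp4 (adjusted p = 0.888), and Aqp4 was the only one above 0. That sign turned to -0.18 on log2(TPM + 1) values, and to between -0.18 and -0.04 when the day 4, 7 or 14 female pair was left out.

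Taken 1 day at a time, no astrocyte gene was called at any day in edgeR, while 1.05%, 2.04%, 0.374% and 0.0594% of all genes were called at days 1, 4, 7 and 14. Each day has 1 female and 1 male pair, so its test rests on the spread pooled over the days. At an unadjusted p under 0.05 there were 14, 8, 1 and 3 astrocyte genes, against 15.4%, 14.8%, 19.1% and 16.5% of all genes. DESeq2 called 13, 10, 1 and 3 of them lower and 0 higher, where it called 4.7%, 3.05%, 4.67% and 3.8% of all genes lower and 3.92%, 3.51%, 2.8% and 3.59% higher. The median log2 change of the homeostatic genes was -2.42 at day 1, -1.90 at day 4, -0.95 at day 7 and -1.20 at day 14. That of the reactive genes was -2.02, -0.997, 0.42 and -0.37, beside -0.05, -0.20 and -0.84 for all genes at days 1, 4 and 7 and a value near 0 at day 14. With median-ratio factors in place of TMM, the share of rises among all called genes went from 74.5% to 57% at day 4 and from 85% to 56% at day 7.

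The difference between days was not called for any astrocyte gene or any other gene (0 of 28597, edgeR, smallest adjusted p 0.675), and 0 of the 31 had an unadjusted p under 0.05, against 6.36% of all genes. No other tool was run for it. In the authors' deposited tables of each day, which treat the columns as samples, 12, 22, 7 and 6 of the 31 genes were lower at days 1, 4, 7 and 14 at an adjusted p under 0.05 and 0 were higher. Of the 55385 rows in the authors' deposited tables, 3.27%, 4.26%, 6.44% and 3.67% were lower and 2.88%, 2.42%, 1.97% and 3.34% higher at those days. For Gfap the authors' deposited tables give log2 changes of 2.63, 1.23, 0.59 and 1.75, with adjusted p-values of 0.0945, 0.515, 0.730 and 0.297.

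The female and the male pairs went apart after day 1. In the day 1 pairs 27 of 31 genes were lower at the wound in females and 28 in males. At day 4 the numbers were 18 and 30, at day 7 they were 2 and 29, and at day 14 they were 10 and 30. The median pair log2 ratio of the homeostatic genes was -1.75, -0.45, 0.85 and 0.14 in the female pairs of days 1, 4, 7 and 14 and -2.65, -3.30, -2.11 and -2.97 in the male ones. That of all genes tested lay between -0.18 and 0 in the same 8 pairs. All 31 genes had a higher injury effect in females than in males, with a median difference of 2.70 on the log2 scale, while 46.9% of all genes did. The same held for 20 of 20 further astrocyte genes (median 1.91) and 12 of 12 neuron markers (median 1.00), so a one-sided direction was not particular to the 31. None of these differences was called (0 of 28597 genes, edgeR, smallest adjusted p 0.0715, of Ncan). At an unadjusted p under 0.05, 30 of the 31 were higher in females, against 5.77% of all genes, and no other tool was run for this difference.

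**Figure D3:**
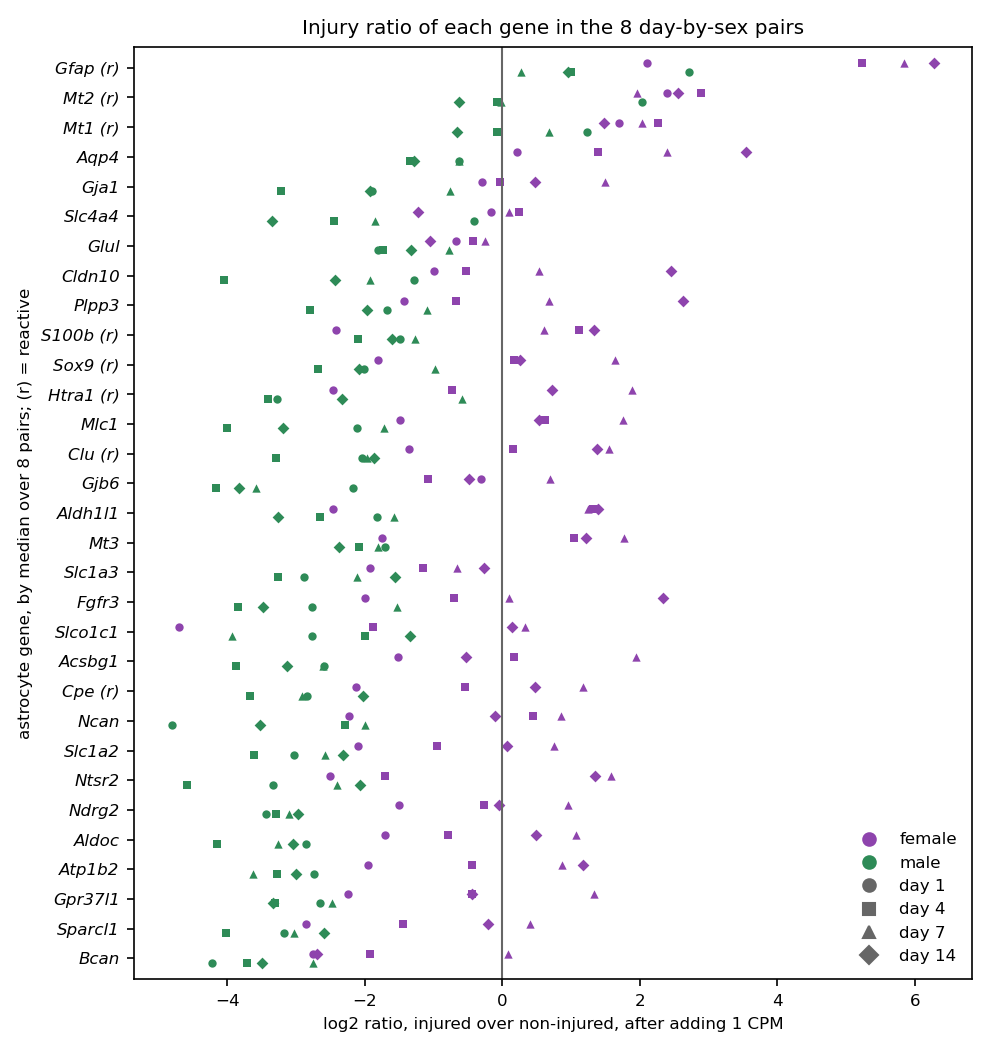
Log2 ratio of injured over non-injured CPM, after adding 1 CPM, for each of the 31 astrocyte genes in the 8 day-by-sex pairs (purple for females, green for males, symbol by day). Gfap lies above 0 in all 8 pairs, and 28 of the 31 genes lie below 0 in all 4 male pairs.

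Fits of 1 sex alone, added after the values had been seen, take their spread from the 4 days of that sex. In the male pairs 27 of 31 genes fell and 0 rose, against 4.81% and 1.64% of all genes. At an unadjusted p under 0.05, 28 were lower and 1 higher (12.4% and 7.99% of all genes), and DESeq2 called 28 lower and 1 higher (7.69% and 5.62%). The 27 included 22 of 23 homeostatic and 5 of 8 reactive genes. The exceptions were Gfap (log2 change 1.16, adjusted p = 0.188), Mt1 (0.23, adjusted p = 0.750), Mt2 (0.24, adjusted p = 0.821) and Aqp4 (-1.11, adjusted p = 0.0701). With 28 of the 31 genes lower in all 4 male pairs, against 13.3% of all genes, only Gfap, Mt1 and Mt2 departed from that pattern. The median change of the 31 genes in males was -2.88, beside -0.02 for all genes. The count of 27 became 14 without the day 4 male pair and 16 without the day 14 male pair, and 23 and 24 without the day 1 or day 7 male pair. In males the neuron sum at the wound was 15.7, 215, 66.1 and 113 CPM at days 1, 4, 7 and 14, against 171.5, 3902, 1059 and 958 CPM.

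In the female pairs 3 genes rose, Gfap, Mt1 and Mt2, and 0 fell, against 3.77% and 2.4% of all genes. At an unadjusted p under 0.05 in that fit 4 genes were higher and 3 lower (11.8% and 14.7% of all genes), and DESeq2 called 3 in each direction (6.03% higher and 7.86% lower of all genes). Gfap, Mt1, Mt2 and Aqp4 were higher at the wound in all 4 female pairs, as were 12% of all genes. Gfap rose by 4.87 (SE 0.76, adjusted p = 0.0159), Mt2 by 3.05 (SE 0.44, adjusted p = 0.0117) and Mt1 by 1.77 (SE 0.23, adjusted p = 0.00907) on the log2 scale. None of the 3 passed without the day 4 or the day 7 female pair, Gfap alone passed without the day 1 pair, and all 3 passed without the day 14 pair. Their changes stayed at 4.56 to 5.93 for Gfap, 1.69 to 2.02 for Mt1 and 2.95 to 3.47 for Mt2, while calls over all genes went from 1617 to 46 without the day 4 pair and 48 without the day 7 pair. Median-ratio factors moved the share of rises among all called genes from 61.1% to 48.7% in females and from 25.4% to 35.5% in males. Aqp4 was higher at the wound in all 4 female pairs and lower in all 4 male pairs, a pattern of 0.241% of all genes. Its female minus male difference was 3.11 (SE 0.72) and was not called (adjusted p = 0.302).

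Part of this contrast lay on the non-injured side. Non-injured male libraries summed to 2100, 24541, 11034 and 5588 CPM of astrocyte transcripts at days 1, 4, 7 and 14, and female ones to 2589, 1453, 767 and 5109 CPM. Injured male libraries summed to 523, 3287, 2749 and 1395 CPM, and injured female ones to 1329, 1424, 1317 and 3696 CPM. The day 4 male library held the highest non-injured level for 26 of the 31 genes, as it did for 20.8% of all genes, and the day 7 male library for 4 others, against 5.63%. Without these 2 pairs, 4 astrocyte genes were called lower over the days (Bcan, Slc1a3, Sparcl1 and Slco1c1) and 3 higher (Gfap, Mt1 and Mt2), against 1.77% and 4.85% of all genes, and the median of the 31 was -0.70 beside -0.46 for all genes.

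**Figure D4:**
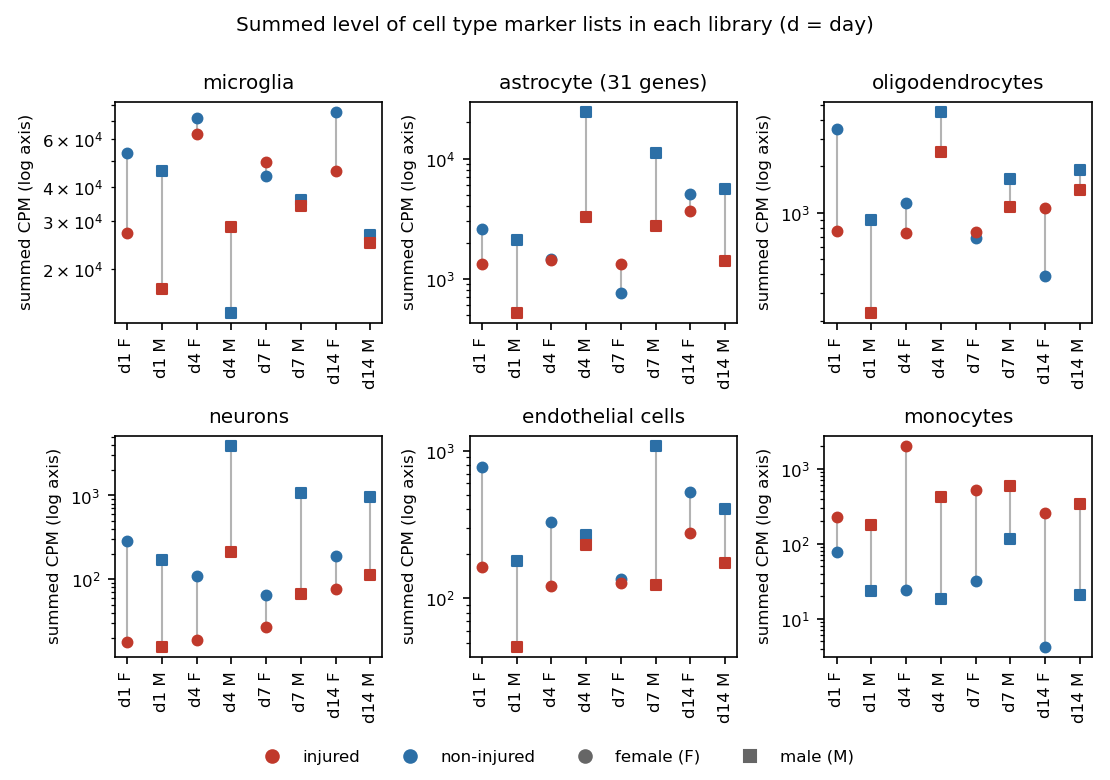
Summed CPM, on a log axis, of 14 microglia, 31 astrocyte, 11 oligodendrocyte, 12 neuron, 10 endothelial and 8 monocyte marker genes in the injured (red) and non-injured (blue) library of each day-by-sex pair, with circles for females and squares for males. In 8 of 8 pairs the neuron and endothelial sums are lower on the injured side and the monocyte sums higher, and the day 4 male non-injured library has the highest astrocyte and neuron sums.

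The next comparison set reactive against homeostatic transcripts within each library, so that a change common to all 31 genes drops out. The sum of the 8 reactive genes was higher relative to that of the 23 homeostatic ones at the wound in 8 of 8 pairs. The log2 ratio of the sums was -1.07, -0.57, -0.57 and -2.13 in injured females of days 1, 4, 7 and 14 against -2.66, -2.82, -3.03 and -4.31 in their partners. In males it was -0.06, 0.35, -0.49 and -0.96 against -1.91, -0.47, -1.43 and -1.98. The day 4 male non-injured library had the highest ratio of its side, above 6 of the injured libraries, so the sides overlapped. The difference ranged from 0.82 to 2.46, with a median of 1.72. It was 2.42 with a narrower choice of 4 reactive and 8 homeostatic genes, 2.27 from sums of TPM and 1.75 without Glul. Single genes hold much of some sums. Glul made up 3858 of 4864 homeostatic CPM in the day 14 female non-injured library. Of the reactive sum, Cpe made up 7616 of 10280 CPM in the day 4 male non-injured library and Mt1 272 of 428 CPM in injured day 1 females. Not every reactive gene rose with the sum. Relative to the homeostatic sum without Glul, Cpe and Htra1 were each higher at the wound in 5 of 8 pairs only. A reactive sum without Gfap, Mt1 and Mt2 is not reported here, nor is the share of all genes with the 8 of 8 pattern.

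Gfap gave the widest separation. Expressed as a percentage of the summed homeostatic genes without Glul, whose level in the day 14 females exceeded all other members there, Gfap stood at 16.9, 47.8, 52.3 and 14.5% in injured females against 0.983, 0.683, 1.02 and 0.114%. In males it stood at 48.2, 46.6, 45.6 and 26.9% against 0.880, 2.08, 5.76 and 2.31%. Every injured library lay above every non-injured one, the 2 libraries with the most astrocyte transcripts included. The sum in the denominator was itself higher at the wound in 2 of 8 pairs only. Mt1 and Clu separated on this ratio too, by less. Their lowest injured log2 ratios were -3.20 and -3.46, and their highest non-injured ones -3.63 and -3.53. The share of all genes that separate on it is not reported here. On the log2 scale the Gfap ratio was higher at the wound by a median of 5.08 (2.99 to 6.99).

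Relative to the same sum, Mt1 (median difference 3.18), Mt2 (3.80) and Clu (0.78) were also higher at the wound in 8 of 8 pairs. The share of all genes with that pattern on this ratio is not reported here. S100b (differences of -1.32 to 2.12) and Sox9 (median 0.62) were higher in 7 of 8, the exception being the day 1 females, and Cpe (0.10) and Htra1 (0.09) in 5 of 8. Monocyte markers moved the same way as Gfap. Their sum was 177 to 2015 CPM at the wound and 4.23 to 115 CPM on the other side, and 7 of 8 were called higher. Mt1, Mt2 and Clu are known from myeloid cells, and whether such cells contributed to these ratios was not tested. In the day 14 female non-injured library, where the Gfap share was lowest, 4 of 8 monocyte and 9 of 20 further astrocyte markers had 0 reads.

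**Figure D5:**
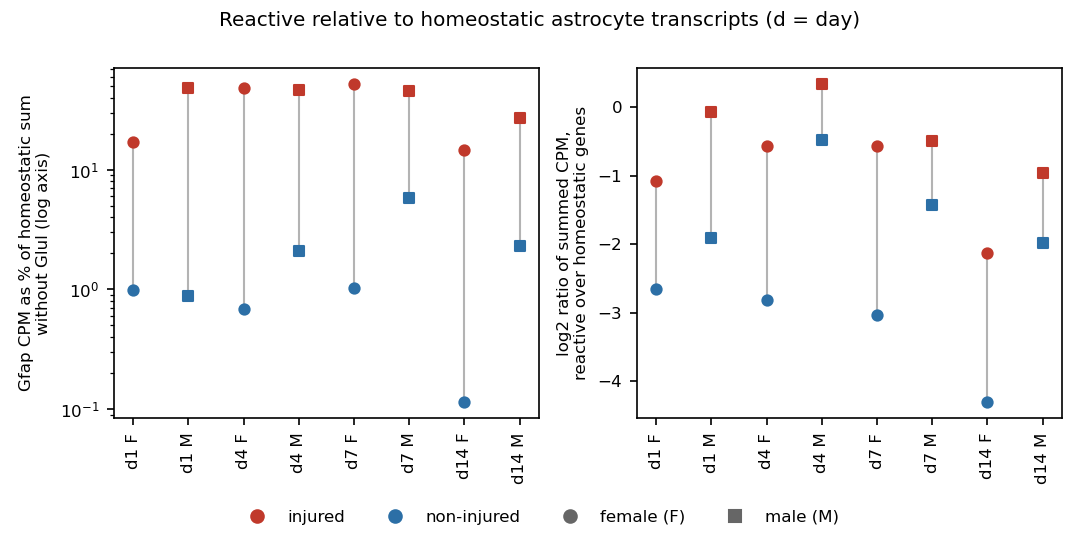
Left, Gfap CPM as a percentage of the summed CPM of the homeostatic astrocyte genes without Glul, on a log axis. Right, log2 ratio of the summed CPM of 8 reactive over 23 homeostatic genes. Red symbols are injured and blue ones non-injured libraries of each day-by-sex pair, with circles for females and squares for males. Injured libraries lie at 14.5% or above in the left panel and non-injured ones at 5.76% or below, and every pair rises in the right panel.

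A list of 20 further astrocyte genes, not among the 31, was read in the same fit. Of these, 9 were called lower over the days and 1 higher (7.96% and 7.76% of all genes), with a median of -1.79. The largest falls were Slc7a10, a serine and alanine transporter (log2 change -3.69, adjusted p = 0.00288), and Agt, angiotensinogen (-3.09, adjusted p = 0.0363). Slc39a12, a zinc transporter, fell by 3.08 on the log2 scale (adjusted p = 0.000550), and Grin2c, a glutamate receptor subunit, by 2.94 (adjusted p = 0.00516), all in edgeR. Slc7a10 averaged 20.3 ± 34.2 CPM non-injured (SD, n = 8), or 8.65 CPM without the day 4 male library, against 1.52 ± 1.59 CPM at the wound. Slc7a10 and Slc39a12 were lower in all 8 pairs. Without the day 4 and day 7 male pairs 1 of the 20 was called lower, against 1.77% of all genes. It was Slc39a12 (-2.69, adjusted p = 0.00246, edgeR), and Slc7a10 missed (-2.75, adjusted p = 0.0624). The gene called higher was Pla2g7, which encodes a secreted phospholipase that macrophages also make, named here after its values were seen. It was higher on the injured side of all 8 pairs, with a mean of 679 ± 797 CPM against 172 ± 273 CPM, or 423 and 77.4 CPM without the day 7 male libraries, which held 2465 and 835 CPM. Its log2 change was 2.05 (adjusted p = 0.0130), and 2.84 without the day 4 and day 7 male pairs (adjusted p = 0.000167).

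A further list of 14 genes known to rise in reactive astrocytes had 7 called higher and 1 lower (7.76% and 7.96% of all genes). Its median was 2.21. Among the 7 were Timp1, an inhibitor of matrix proteases (log2 change 4.68, adjusted p = 0.0104, edgeR), and Lcn2, or lipocalin 2 (4.52, adjusted p = 0.000868). The hyaluronan receptor Cd44 (4.35, adjusted p = 0.000474, edgeR) and the filament protein Vim (3.87, adjusted p = 0.000630) were others. When the day 4 and day 7 male pairs were left out, 6 were called higher and 0 lower (4.85% and 1.77% of all genes). Timp1 then missed (adjusted p = 0.128, edgeR). The mean of Vim was 174 ± 76.4 CPM at the wound and 15.5 ± 17.8 CPM on the other side, where the day 7 males lifted it from 9.50 CPM, and that of Cd44 was 110.5 ± 33.1 CPM against 6.75 ± 5.42 CPM. For both, every injured library lay above every non-injured one. The share of all genes that separate in this direction is not reported here. Activated microglia and infiltrating myeloid cells are known to express several of these genes, Vim and Cd44 among them, so the list does not mark astrocytes alone. In the male pairs, where 27 of the 31 astrocyte genes fell, 4 of these 14 rose and 0 fell. In that fit 1.64% of all genes rose and 4.81% fell.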

How the data were processed

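Sorted cells of 16 combinations of day, sex and side were read as 32 columns, with 0 per-sample columns left out. Per the labels' protocols, SMART-Seq v4 cDNA went into Nextera XT libraries. Salmon 1.0.0 and, DESeq2 1.26.0 are named in the submitters' processing notes. The genome build is not given in the sources used here, nor are the settings. The authors deposited expected counts per gene, not normalized, TPM values, a table of normalized counts (a signal, not used for tests), and comparison tables that hold, per the file headers, log2 fold changes, p-values, a mean signal, and standard errors and statistics read here as scores. The 2 columns of a combination were summed and rounded. The sums were fitted with edgeR 4.0.16 under R 4.3.3 (quasi-likelihood, TMM factors, filterByExpr at a minimum count of 10), with 8 pair means and 4 day effects of injury, 4 residual degrees of freedom and adjustment over 28597 genes. The fit was first tested on simulated counts. CPM uses the TMM library size, and pair ratios add 1 CPM. Alternatives were median-ratio factors, no filter, DESeq2 1.42.0, limma 3.58.1 on log2(TPM + 1) and log2(TPM + 0.1), no pair means, the 32 columns as samples, and leaving out columns or pairs. Symbols come from the authors' tables, coordinates from GENCODE M21, which held 28 of the 31 genes under the same versioned ID, and promoters from RefSeq. Values of every library are given for Gfap, for genes called over the days and for the 3 with the highest mean TPM, those of Mt2 were added after they were seen, and up to 4 called genes are named of each further list. The members and lists were chosen with earlier results of these data known.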

Additional observations from a re-analysis of the deposited data

Results flagged for a closer look

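In 66 groups of 8 libraries (each gene and list sum on each side), the highest or lowest library was set against the others by its gap over the group's range, and 32 groups held a library past Dixon's 95% critical value. For normally distributed values chance gives about 1 in 20 groups. These CPM values are skewed towards high levels, so that rate is no fair measure of excess here. The groups also share libraries and so are not independent. The day 4 male non-injured library was the one past it in 22 of them.

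For reactive genes that library held 7616 CPM of Cpe, 1084 of Clu, 483 of Htra1, 400.2 of Mt1, 212 of S100b, 117 of Sox9 and 86.3 of Mt2, and the 8 reactive genes summed to 10280 CPM there, against 2994 in the next library. For homeostatic genes it held 1959 CPM of Slc1a2, 864 of Atp1b2, 522 of Acsbg1, 499.8 of Plpp3, 476 of Ntsr2, 466 of Mlc1, 451 of Gpr37l1 and 387 of Bcan. Mt3 stood at 378 CPM, Gjb6 at 143, Fgfr3 at 133, Aldh1l1 at 129, Cldn10 at 128 and Aqp4 at 82.2 in the same library. Its neuron marker sum of 3902 CPM was also the highest, and what part other cells have in these levels was not tested.

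The injured library of the same day and sex stood apart for 597 CPM of Cpe, 88.3 of Mt3, 87.9 of Atp1b2, 81.8 of Mt2, 70.8 of Plpp3, 48.8 of S100b and 28.6 of Bcan. Glul stood apart in both day 14 female libraries, at 1864 CPM at the wound and 3858 CPM on the other side. Slco1c1 stood apart in the day 7 male non-injured library at 107 CPM.

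Aqp4 moved in opposite directions in the sexes, higher at the wound in 4 of 4 female pairs and lower in 4 of 4 male pairs. Its median pair log2 ratio was higher in females by 2.86, and edgeR's test of the difference did not pass after adjustment (adjusted p = 0.302).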

How the results depend on the processing

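Over the days, the 0 astrocyte genes called higher became 3 in DESeq2, 1 in limma with either pseudocount, 1 without pair means, and 0 to 3 when a replicate column set or a pair was left out. The 8 called lower became 14 with median-ratio factors, 21 in DESeq2, 22 in limma with either pseudocount and 1 to 19 in the leave-outs (dropping the day 1 males left 1, the day 1 females or day 7 males 3, the day 14 males 5, the day 14 females 13 and the day 4 females 19). Of all 28597 genes, 2824 were lower with median-ratio factors, and 3279 and 3719 in limma at log2(TPM + 1) and log2(TPM + 0.1). Without the day 4 and day 7 male pairs, chosen after seeing the data, 3 astrocyte genes were higher and 4 lower. Bcan passed in every one of its 19 alternatives. At day 1 the 0 called lower became 1 with median-ratio factors, 13 in DESeq2, 3 and 6 in limma at log2(TPM + 1) and log2(TPM + 0.1), 4 without those 2 male pairs and 0 to 2 in the leave-outs. At day 4 it became 10 in DESeq2, 1 in limma with either pseudocount and 0 to 1 in the leave-outs. At day 7 it became 1 in DESeq2 and 1 in limma with either pseudocount. At day 14 it became 3 in DESeq2 and 1 in limma with log2(TPM + 0.1). In the female pairs the 0 called lower became 2 with median-ratio factors, 3 in DESeq2 and 0 to 1 in the leave-outs, and the 3 called higher became 0 to 3. In the male pairs the 0 called higher became 1 in DESeq2, and the 27 called lower became 14 to 24 in the leave-outs.

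Counting the 32 columns as samples, with the replicate number as a block, gave 3 higher and 27 lower over the days, 2 and 18 at day 1, 17 lower at day 4, 1 and 5 at day 7 and 5 lower at day 14. Of all 22980 genes tested with that block, 4599 were higher and 7840 lower over the days. By day it was 3475 and 4722 at day 1, 3483 and 4189 at day 4, 3705 and 7508 at day 7 and 3829 and 4672 at day 14. Pair means of day and sex on the 32 columns gave 3 and 27 over the days, 3 and 24 at day 1, 2 and 22 at day 4, 1 and 7 at day 7 and 1 and 9 at day 14. Of all 22980 genes, 5292 were then higher and 9211 lower over the days. By day it was 4862 and 6479 at day 1, 4403 and 5955 at day 4, 4714 and 9553 at day 7 and 5354 and 6343 at day 14. The columns of a combination differ by little more than counting noise and the number is not shown to pair anything across combinations. Over all genes, 4496 were called in the 16 libraries, 12439 with that block, 14503 with pair means on the columns, 2097 without pair means, 2188 without the 2 male pairs and 1517 without the day 1 female pair.

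The sign of Aqp4 (0.33) turned to -0.18 on log2(TPM + 1), and to -0.13, -0.04 and -0.18 without the females of day 4, 7 or 14, in a range of -0.18 to 3.05 over its leave-outs. In males Mt1 (0.23) ranged from -0.0036 to 0.57 and Mt2 (0.24) from -0.24 to 0.62, both below 0 only without day 1. In females Gpr37l1 ranged from -1.11 to 0.0163, above 0 only without day 1, and Slc4a4 from -0.52 to 0.0776, above 0 only without day 14. The reactive to homeostatic difference was 2.42 with the narrower choice of genes. Median-ratio factors moved the median of all genes from -0.32 to -0.44. The cause of these differences was not tested. With 1 library for each day, sex and side, a single library decides many of the counts, and genes near 1 CPM rest on few reads.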
